A study of Mus musculus with 6 samples.

Results

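The genes described here make, lengthen and desaturate fatty acids. The list holds 10 genes, taken by name: Acly, Acaca, Fasn, Scd1, Scd2, Elovl1, Elovl5, Elovl6, Fads1 and Fads2. All 10 were matched by their Ensembl identifiers among the 23154 genes measured, and all 10 passed the filter on low values, so that none is left out below.

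The RNA came from 2 groups of 3 dishes each of RAW264.7, a line of mouse cells that resemble macrophages. One group carried the construct pINDUCER20b-HA-NUR77, from which doxycycline induces NUR77 with an HA tag. NUR77 is a nuclear receptor, and its gene is Nr4a1. The control group carried pINDUCER20b-GFP. Doxycycline (1 µg/mL) was added to both groups 24 hours after seeding and left for 18 hours, and no cells without doxycycline were analysed here. Each group is 1 stable line, and the sources used here do not say whether a line is a clone or a pool. Differences between the lines therefore cannot be told apart from the effect of the transgene, and the p-values measure only the spread between dishes of a line. By its title, the series concerns how NUR77 affects mitochondrial metabolism and inflammation in macrophages.

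In the cytosol, citrate is cleaved to acetyl-CoA, acetyl-CoA is carboxylated to malonyl-CoA, and the fatty acid synthase joins these units into palmitate. Elongases of the endoplasmic reticulum add further carbons, and desaturases introduce double bonds. Stearoyl-CoA desaturases make monounsaturated fatty acids, whereas Fads1 and Fads2 act in the making of long polyunsaturated fatty acids, among them arachidonate, the precursor of prostaglandins and leukotrienes. In macrophages these enzymes supply membrane lipid, and many of their genes are known targets of the transcription factors SREBP and LXR.

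The unit of level is the normalized read, a gene's reads scaled to a library total of 10000000. Between 11199468 and 15929487 reads per library fell on genes. Differences are log2 fold changes of NUR77 over GFP on the log2(normalized reads + 1) scale, with limma's standard error (SE), its 95% interval and a p adjusted over all 11201 tested genes by the Benjamini-Hochberg method. A gene is called when this adjusted p is under 0.05. Nr4a1 stood between 148 and 170 normalized reads in GFP and between 288 and 314 in NUR77, a rise of 1.87-fold. This is only a weak check of the labels, since 38.4% of all tested genes rose. Reads of the transgene and of the cells' own gene were not told apart here. The macrophage genes Spi1 and Ptprc, both not called, stood at means of 1119 and 4583 in the GFP line and 1190 and 4664 in the NUR77 line. Of all 8 macrophage markers on the list, 2 rose and 4 fell, where 38.4% and 28.3% of all tested genes did so. Mpeg1 fell from a mean of 16580 to 1019 and Cd68 from 14010 to 5136. Csf1r and Adgre1 fell by 0.77 and 0.59 on the log2 scale, while Itgam rose by 1.18 and Fcgr1 by 0.23. The summed level of the list was 46225 to 46989 in GFP and 25392 to 25669 in NUR77, a drop led by Mpeg1 and Cd68. Because these are bulk samples, fewer cells of a kind and less RNA per cell cannot be told apart.

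The pathway did not move as a block. Acaca and Scd1 rose, Fads1, Fads2, Elovl1 and Elovl5 fell, and Acly, Fasn, Elovl6 and Scd2 did not pass the test. The 6 of 10 genes called compare with 66.7% called among all tested genes. The 2 that rose compare with 38.4% of all tested genes that rose, and the 4 that fell with 28.3% that fell. The count called is thus near the background and is not a result about these genes. Under TMM scaling, which adjusts for unequal library composition, 2 members rose and 6 fell, where 32.2% and 34.3% of all tested genes did so. No member was called at 2-fold or more, against 13.9% of all tested genes. Their median log2 fold change was -0.10 and their median absolute change 0.25, beside 0.06 and 0.31 over all tested genes. The libraries of the lines were fully separated in 7 of 10 genes, which is also near the 70.6% found among all tested genes.

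**Figure D1:**
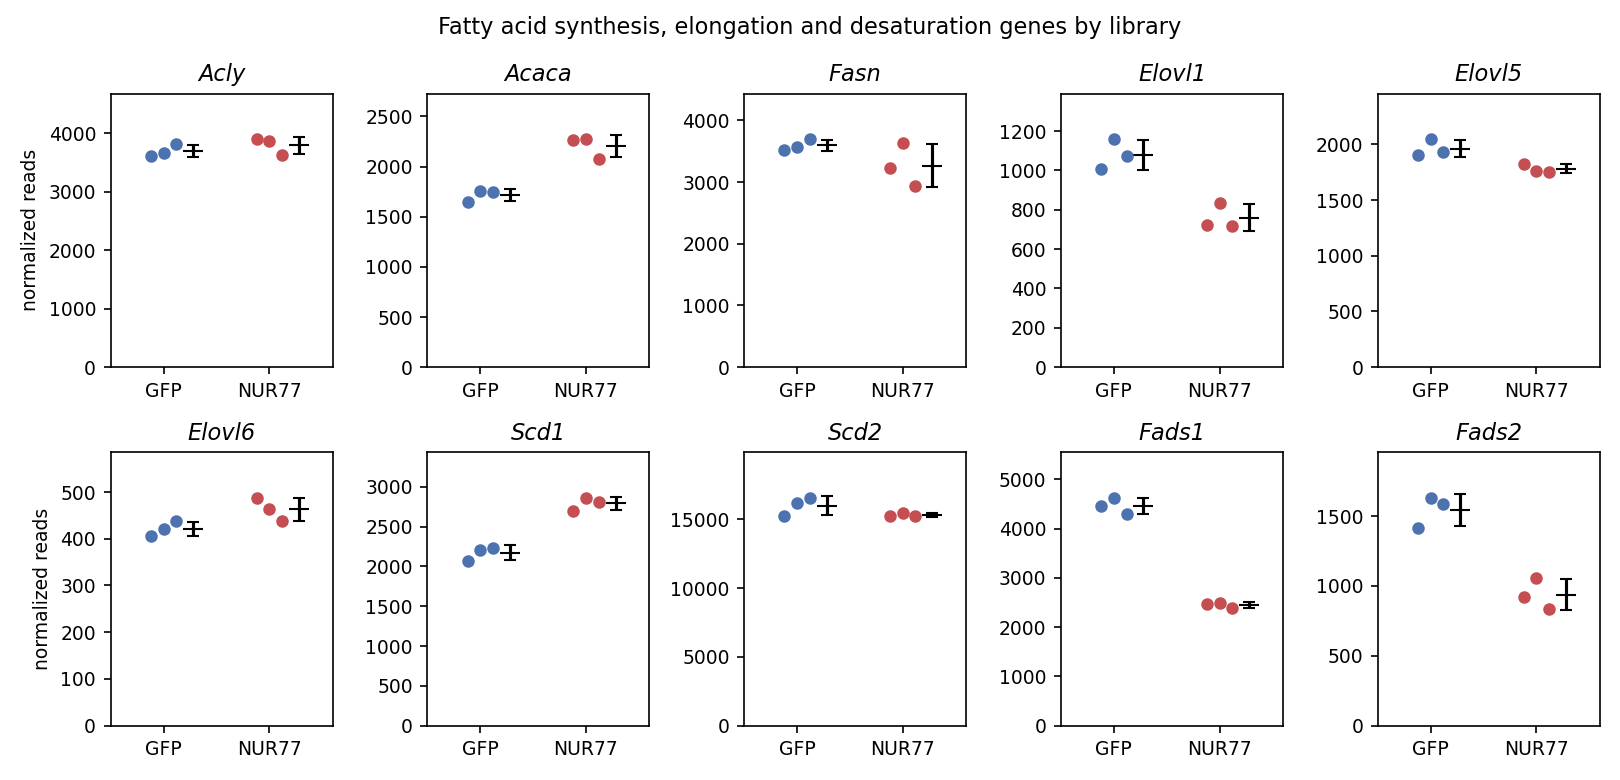
Normalized reads (vertical axis, from 0) of each of the 10 genes in the 3 GFP and 3 NUR77 libraries; points are libraries, and the bar beside them is the mean ± SD (n = 3). Fads1 shows the widest gap between the lines, at 4465 against 2451, while the points of Acly, Fasn and Scd2 overlap.

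Windows of 250 bases before a RefSeq start are shown for Elovl1 and Elovl5, which fell, and for Fasn, which did not pass the test, because these are the 3 windows in which a searched motif was matched. They are from RefSeq on GRCm38.p6, read 5′ to 3′ along the gene, with exact motif matches in capitals.
Elovl1, chr4:118427843-118428092, plus strand: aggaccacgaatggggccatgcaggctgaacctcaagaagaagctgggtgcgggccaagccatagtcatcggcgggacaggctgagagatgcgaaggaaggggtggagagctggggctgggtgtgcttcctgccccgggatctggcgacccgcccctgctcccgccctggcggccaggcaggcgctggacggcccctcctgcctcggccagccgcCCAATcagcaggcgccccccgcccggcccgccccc
Elovl5, chr9:77917115-77917364, plus strand: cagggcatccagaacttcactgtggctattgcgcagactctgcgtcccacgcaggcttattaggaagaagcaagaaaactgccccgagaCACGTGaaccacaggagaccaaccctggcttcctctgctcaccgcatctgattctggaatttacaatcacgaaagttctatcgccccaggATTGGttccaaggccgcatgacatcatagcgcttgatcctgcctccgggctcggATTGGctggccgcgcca
Fasn, chr11:120824548-120824797, minus strand: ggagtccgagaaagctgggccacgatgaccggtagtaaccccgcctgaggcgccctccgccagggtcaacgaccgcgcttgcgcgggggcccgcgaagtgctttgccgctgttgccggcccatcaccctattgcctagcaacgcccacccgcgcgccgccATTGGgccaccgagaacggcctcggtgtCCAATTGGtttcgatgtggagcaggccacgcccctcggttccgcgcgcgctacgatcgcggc

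On both strands, 4 motifs were searched: the NUR77 response element NBRE (AAAGGTCA), a sterol response element (TCACNCCAC), the E-box CACGTG and the CCAAT box (CCAAT). Windows were held for 7 of the members, 8 windows in all because Elovl1 has 2, and the windows of Scd1, Scd2 and Fads1 were not analysed here. Some RefSeq starts lie inside the gene as GENCODE annotates it: all 250 bases of the Acaca window and of the downstream Elovl1 window, 243 of the Fads2 window, 31 of the Elovl6 window and 1 of the Elovl5 window fall within the gene. Neither the NBRE nor the sterol element was matched in any of the 8 windows. Among all 32851 windows of the same length, 1.34% held the NBRE and 1.05% the sterol element, so such matches are rare everywhere. The Fasn window held 3 CCAAT boxes, and a pair of them on opposite strands overlaps. The Elovl5 window held 2 CCAAT boxes and an E-box, and the upstream Elovl1 window held 1 CCAAT box, where 33.8% and 6.02% of all windows hold a CCAAT box and an E-box. No match was found in the windows of Acly, Acaca, Elovl6 or Fads2, which says only that these letters do not occur there.

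Acly encodes ATP-citrate lyase, which makes cytosolic acetyl-CoA from citrate. The gene (ENSMUSG00000020917) lies on chromosome 11, 100476353 to 100528000, minus strand, in mm10. Acly was measured at 3607, 3671 and 3811 normalized reads in GFP replicates 1, 2 and 3 and at 3902, 3863 and 3630 in the NUR77 replicates. The lines overlapped, and the difference was 0.04 (95% interval -0.06 to 0.14, adjusted p = 0.50). Its sign turned to -0.04 under TMM scaling.

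Acaca encodes acetyl-CoA carboxylase alpha, the enzyme that makes malonyl-CoA and commits acetyl-CoA to synthesis. It spans 84129672 to 84401651 on the plus strand of chromosome 11 (ENSMUSG00000020532). Its GFP values were 1651, 1753 and 1743 and its NUR77 values 2261, 2273 and 2077. Every NUR77 library was above every GFP library, and Acaca rose from 1716 ± 56.5 to 2204 ± 110 (SD, n = 3), or by 0.36 on the log2 scale (SE 0.053, adjusted p = 1.4e-05). This level is uncertain, since 52.6% of the 50-base words of its longest annotated transcript also occur in other genes, chiefly Gm5182. Reads shared in this way can be split or dropped in counting. No measured gene carried the name Gm5182, so its own level could not be read.

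Fasn encodes the fatty acid synthase, which builds palmitate. The gene (ENSMUSG00000025153, chromosome 11, 120805846 to 120824547, minus strand) was at 3523, 3571 and 3697 in GFP and at 3227, 3626 and 2936 in NUR77. NUR77 replicate 2 lay inside the GFP range and the other 2 NUR77 libraries lay below it. The difference of -0.15 (95% interval -0.28 to -0.01) missed the threshold with an adjusted p of 0.054. The other scalings called Fasn lower, at -0.22 with TMM (adjusted p = 0.0068), -0.21 with upper quartiles (0.0083) and -0.20 with median ratios (0.01). It also passed as lower without a filter (adjusted p = 0.042), with a replicate block (0.046) and without NUR77 replicate 2 (-0.22, 0.0046).

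Of the 3 elongases, Elovl1 changed most. Elovl1, which acts on saturated and monounsaturated very long chains, was at 1007, 1160 and 1071 in GFP and at 723, 837 and 719 in NUR77. The lines did not overlap, and Elovl1 fell by 0.51 on the log2 scale (SE 0.069, adjusted p = 6.1e-06), a GFP level 1.42-fold above that of NUR77. The gene (ENSMUSG00000006390, chromosome 4, 118428093 to 118432953, plus strand) shares 53 exonic bases, 1.94% of its exon length, with Cdc20 on the opposite strand, which rose by 0.19. The sources used here do not say whether the authors' counting used strand.

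Elovl5, an elongase of polyunsaturated fatty acids (ENSMUSG00000032349, chromosome 9, 77917364 to 77984519, plus strand), was at 1902, 2047 and 1930 in GFP and at 1825, 1763 and 1753 in NUR77. All NUR77 libraries were lower, by a small step (log2 -0.14, SE 0.050, adjusted p = 0.023). The adjusted p rose above the threshold without GFP replicate 2 (0.11) or GFP replicate 3 (0.055). It did so too without NUR77 replicate 2 (0.066) or NUR77 replicate 3 (0.051), and without both the variance trend and robust moderation (0.057).

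Elovl6, which lengthens palmitate towards stearate (ENSMUSG00000041220, chromosome 3, 129532355 to 129638495, plus strand), was the lowest of the 10 genes. Its values were 406, 421 and 437 in GFP and 488, 463 and 439 in NUR77. The NUR77 libraries were all higher, but the closest pair, at 437 and 439, nearly met. The difference of 0.14 was not called (SE 0.065, adjusted p = 0.077), except without NUR77 replicate 3 (0.17, adjusted p = 0.04), and it was 0.06 under TMM scaling. Its level is uncertain to a small degree, since 4.40% of its 50-base words occur in other genes, chiefly Gm11295, Trim12c and Tanc2, and Trim12c rose by 0.64.

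The stearoyl-CoA desaturase genes, which lie side by side among the tested genes of chromosome 19, differed in their calls. Scd1 (ENSMUSG00000037071, 44394455 to 44407879, minus strand) was at 2063, 2209 and 2236 in GFP and at 2700, 2863 and 2804 in NUR77. With no overlap, Scd1 rose from 2170 ± 92.9 to 2789 ± 82.6 (SD, n = 3), or by 0.36 on the log2 scale (SE 0.051, adjusted p = 7.9e-06). Scd2 (ENSMUSG00000025203, 44293674 to 44306864, plus strand) was the most abundant member, at 15271, 16178 and 16592 in GFP and 15231, 15460 and 15265 in NUR77. Its lines overlapped and the difference was -0.06 (95% interval -0.16 to 0.03, adjusted p = 0.24), but each of the other scalings called Scd2 lower: -0.14 with TMM (adjusted p = 0.017), -0.13 with upper quartiles (0.025) and -0.12 with median ratios (0.033). Both levels are uncertain to a small degree, because 4.66% of the 50-base words of Scd1 and 4.01% of those of Scd2 occur in other genes, chiefly their paralogs.

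Within each library the log2 ratio of Scd1 over Scd2 was -2.89, -2.87 and -2.89 in GFP and -2.50, -2.43 and -2.44 in NUR77. The ratio was thus 0.43 higher in the NUR77 line, with no overlap. The exact two-sided permutation test gave p = 0.1, the smallest that 3 against 3 libraries allow (adjusted p = 0.125 over 5 ratios). Being taken within a library, the ratio does not move with the scaling, apart from the pseudocount.

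Fads1 and Fads2 had the largest changes of the 10 genes. Fads1 (ENSMUSG00000010663, chromosome 19, 10182888 to 10196877, plus strand) was at 4464, 4631 and 4301 in GFP and at 2479, 2491 and 2384 in NUR77. The NUR77 libraries lay far below the GFP range, and Fads1 fell from 4465 ± 165 to 2451 ± 58.6 (SD, n = 3), which is -0.86 on the log2 scale (SE 0.049, adjusted p = 8.0e-11). By absolute log2 fold change Fads1 stood above 83.2% of all tested genes. Fads2 (ENSMUSG00000024665, 10062765 to 10101746, minus strand) was at 1415, 1632 and 1588 in GFP and at 923, 1056 and 833 in NUR77. It fell from 1545 ± 115 to 937 ± 112, which is -0.72 on the log2 scale (SE 0.080, adjusted p = 2.5e-06), again without overlap.

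The log2 ratio of Fads1 over Fads2 was 1.53 in GFP and 1.39 in NUR77 on average, and the lines overlapped (difference -0.14, exact permutation p = 0.3, two-sided). For the other 3 ratios examined, the lines did not overlap. Fasn over Acaca went from 1.07 to 0.56, a difference of -0.51, the largest of the 5. Elovl1 over Elovl5 differed by -0.37 and Elovl6 over Elovl5 by 0.27. Each of these 3 had an exact permutation p of 0.1, two-sided (adjusted p = 0.125), so none could pass the threshold in this design.

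**Figure D2:**
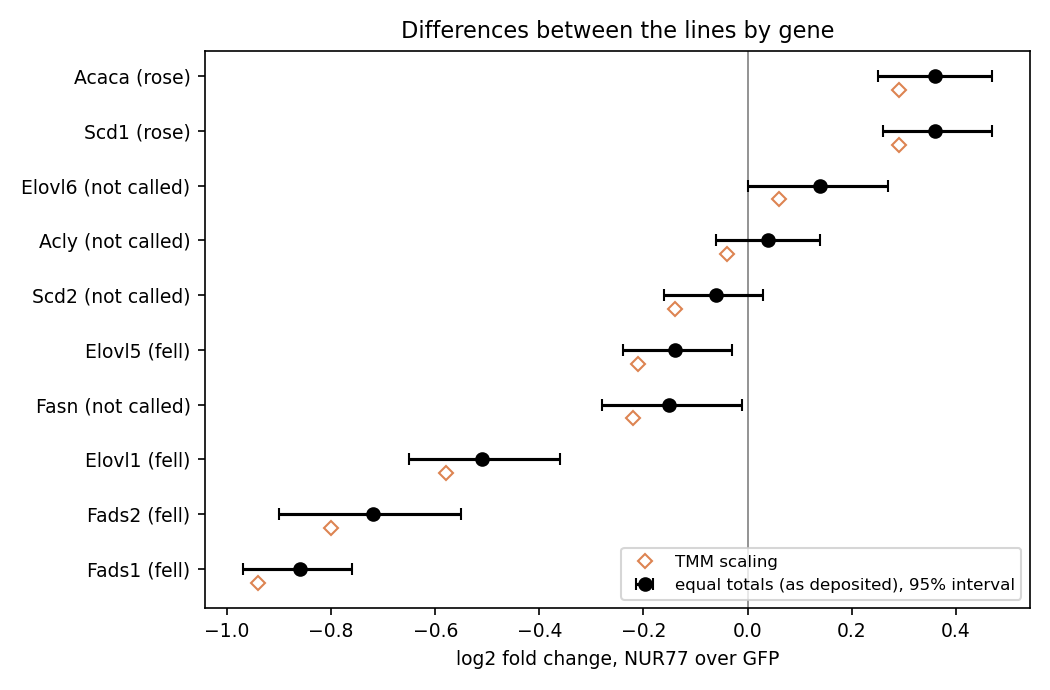
Log2 fold change of NUR77 over GFP (horizontal axis) for the 10 genes, ordered by value; black points are estimates with the deposited scaling to equal totals, bars are 95% intervals from limma (3 libraries per line), and open diamonds are the estimates under TMM scaling. Fads1 at -0.86 and Fads2 at -0.72 lie farthest from 0, and every diamond lies to the left of its point.

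Per kilobase of merged exons, Scd2 had the highest level in both lines, at 2931 normalized reads in GFP and 2804 in NUR77. In GFP, Fads1 came next at 928, followed by Acly at 700, Elovl5 at 556, Fads2 at 469, Scd1 at 443, Elovl1 at 396, Fasn at 329, Acaca at 100 and Elovl6 at 65.5. Fads2 and Scd1 differed there by less than the spread of Fads2, whose coefficient of variation was 7.45%. The order differed in NUR77, where Acly at 719 and Scd1 at 570 came before Fads1 at 509 and Elovl5 at 505. Fads1 and Elovl5 were closer there than their coefficients of variation of 2.39% and 2.21%. Fasn at 298, Fads2 at 285 and Elovl1 at 279 were likewise within their spread, and Acaca at 129 and Elovl6 at 72 came last. Merged exons of all annotated transcripts overstate the length of a gene whose long forms are rare.

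The neighbours of the members are described because each line can carry changes of its own along a chromosome. The counts are to be read beside the 38.4% of all tested genes that rose and the 28.3% that fell. Of the 24 nearest tested genes around Fads1, which include Fads2 and Fads3, 13 fell and 6 rose (median log2 fold change -0.20). The genes from Incenp through Fth1, Rab3il1, Fads3 and Fads2 to Fads1, consecutive among tested genes, all fell; this run was picked out after its values were seen. Within it Rab3il1 fell by 3.29 and Fth1, the ferritin heavy chain gene, by 1.13 on the log2 scale, while Fen1, on the other side of Fads1, was at -0.11 (adjusted p = 0.32). Around Scd1, 9 of 24 neighbours fell and 2 rose (median -0.05), and Scd1 rose among genes that mostly did not. The widest change there was that of Sema4g, which rose by 1.58, and Entpd7, Lzts2 and Sfxn3 fell by 0.62 to 0.64 on the log2 scale. Around Elovl1, 6 fell and 6 rose (median 0.05), and around Elovl5, 10 fell and 7 rose (median -0.20). Around Acaca, 13 rose and 2 fell (median 0.22), and around Acly 13 rose and 6 fell (median 0.26). Around Elovl6, 16 rose and 5 fell (median 0.25), and around Fasn 9 rose and 6 fell (median 0.03). The windows of Fads2 and Scd2 largely repeat those of Fads1 and Scd1. The part of neighbourhood in the members' differences was not tested.

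**Figure D3:**
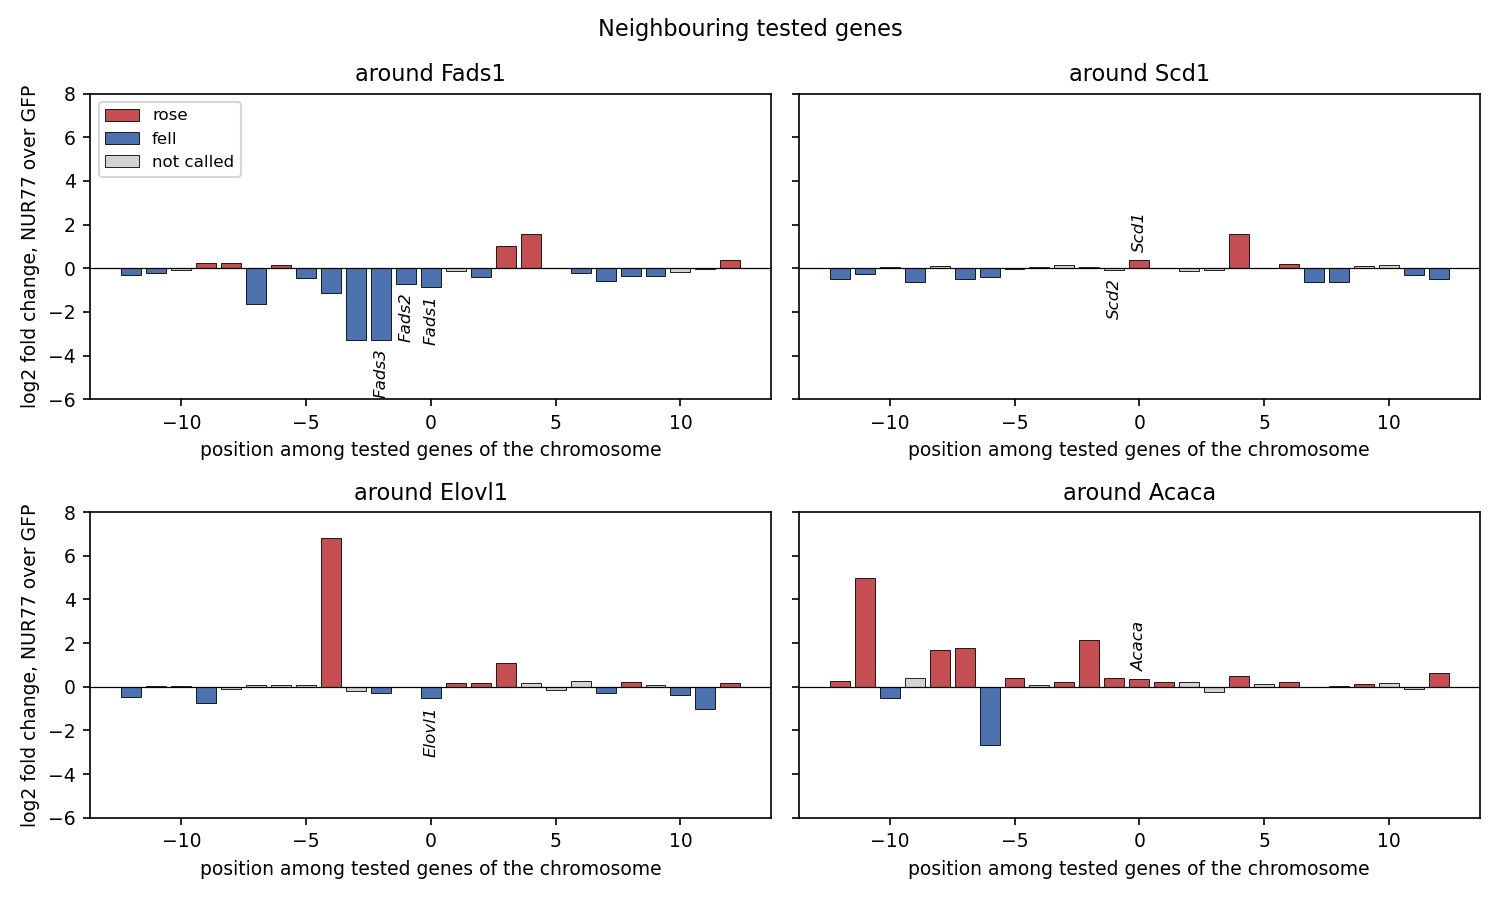
Log2 fold change of NUR77 over GFP (vertical axis) for Fads1, Scd1, Elovl1 and Acaca, each at 0 on the horizontal axis, and for the 12 nearest tested genes on each side, in chromosome order and not to distance; bars are single genes, coloured by call. Fads1, Fads2 and Fads3 lie in a run of genes that fell, whereas 13 of the 24 neighbours of Scd1 were not called. Of all tested genes, 66.7% were called.

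Counts in the other pathway lists are to be read beside the same shares of all tested genes, 66.7% called, 38.4% that rose and 28.3% that fell. The paralogs of the members were mostly near the limit of detection. Of 9 listed, 8 were matched and 3 passed the filter. Fads3, also of the Fads cluster, was at 44.6, 38.3 and 41.8 in GFP and at 6.25, 5.57 and 0.796 in NUR77, where it rests on 16 reads in all. It fell by 3.27 on the log2 scale (SE 0.446, adjusted p = 3.2e-05), or by 2.40 with a pseudocount of 5 and 2.62 without NUR77 replicate 3. Acacb, the carboxylase isoform linked to control of fatty acid oxidation, rose from 87.2 ± 3.31 to 122 ± 17.3 (0.47, adjusted p = 0.0028). Fads6 was at -0.05 (adjusted p = 0.65). Scd3, Scd4, Elovl3, Elovl4 and Elovl7 had means of 10.0 or less in each line and were not tested, and Elovl2 was not analysed here.

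Partners in the elongation cycle and in electron supply were divided: of 9, 2 rose and 3 fell. The dehydratase genes Hacd3 and Hacd1 rose, Hacd3 from 768 ± 18.9 to 1668 ± 96.1 (1.12, adjusted p = 1.8e-11) and Hacd1 by 0.68 (adjusted p = 4.6e-05). The genes of the reductases in the cycle were not called, Hsd17b12 at -0.03 (95% interval -0.14 to 0.07) and Tecr at 0.04 (-0.09 to 0.17). Cytochrome b5 and its reductase pass electrons to the desaturases. Cyb5r3 fell from 1469 ± 11.0 to 1145 ± 57.5 (-0.36, adjusted p = 1.4e-05) and Cyb5a from 396 ± 10.7 to 317 ± 14.6 (-0.32, adjusted p = 5.0e-04). Both fell without overlap.

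Of 7 genes that supply precursors and NADPH, 4 rose and 1 fell, 71.4% called and so near the 66.7% of all tested genes. Under each of the other scalings 4 in all were called. Me1, the cytosolic malic enzyme and a source of NADPH, was at 204, 193 and 178 in GFP and at 1043, 924 and 1150 in NUR77. Its rise of 2.43 (SE 0.080, adjusted p = 9.5e-14) was far larger than any change among the 10 members. Acss2, which makes acetyl-CoA from acetate, rose by 0.47 (adjusted p = 2.0e-04) and G6pdx by 0.26 (adjusted p = 0.0011), while Idh1 fell by 0.47 on the log2 scale. Pgd and Mlycd were at -0.07 and -0.02 (adjusted p = 0.32 and 0.83).

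Acyl-CoA synthetases activate fatty acids for further use. Of 8 listed, 7 were tested, 3 rose and 1 fell. Under each of the other scalings 3 in all were called, as they were without both the variance trend and robust moderation. Acsbg1 rose from 34.1 ± 3.87 to 351 ± 51.7 (3.32, adjusted p = 5.0e-13) and Acsl5 from 1885 ± 71.8 to 4000 ± 157 (1.08, adjusted p = 7.5e-12). Slc27a1, a fatty acid transport protein with synthetase activity, fell from 3598 ± 217 to 1433 ± 183 (-1.33, adjusted p = 1.8e-08). Acsl4 rose by 0.18 (adjusted p = 0.0083), and Acsl3 and Acsl1 were at 0.10 and -0.01 (adjusted p = 0.12 and 0.90).

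Among 12 tested regulators of lipogenesis, 3 rose and 6 fell, 75% called beside 66.7% of all tested genes. Insig1, which retains the SREBP escort in the endoplasmic reticulum and is itself a SREBP target, was at 1182, 938 and 1037 in GFP and at 446, 414 and 338 in NUR77 (-1.40, SE 0.105, adjusted p = 2.8e-07). Mid1ip1, which promotes the polymerisation of acetyl-CoA carboxylase, fell from 887 ± 60.9 to 502 ± 39.1 (-0.82, adjusted p = 1.7e-08). Nr1h3, encoding LXR alpha, fell by 1.83 on the log2 scale and Mlx rose by 0.29 (adjusted p = 4.5e-04). Srebf1, encoding SREBP-1, was at 1187, 1318 and 1271 in GFP and at 1060, 1348 and 1260 in NUR77, so the lines overlapped (-0.05, 95% interval -0.21 to 0.12, adjusted p = 0.60). Scap, the SREBP escort gene, was at 0.04 (adjusted p = 0.71).

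In mitochondrial fatty acid synthesis, a separate pathway, 1 of 5 tested genes rose and 2 fell. Cbr4 fell by 0.37 (adjusted p = 0.0030), Oxsm by 0.20 (0.047) and Mecr rose by 0.20 (0.026), all small steps, while Ndufab1 and Mcat were at -0.05 and -0.12 (0.49 and 0.28). Leaving out GFP replicate 1, or either of NUR77 replicates 1 and 2, left only 1 call in this list. Under each of the other scalings 2 in all were called. The same count came without a filter, with a replicate block, and without GFP replicate 2 or 3. It came as well without both the variance trend and robust moderation. In esterification, where fatty acids enter glycerolipids, 4 of 9 rose and 2 fell. Dgat2, which makes triacylglycerol, rose from 52.5 ± 2.23 to 100 ± 3.92 (0.92, adjusted p = 4.3e-06) and Agpat3 from 528 ± 33.1 to 912 ± 40.2 (0.79, adjusted p = 7.1e-09). Plin2, which coats lipid droplets, fell from 1651 ± 33.9 to 1061 ± 39.7 (-0.64, adjusted p = 1.0e-08), and Agpat2 by 0.48 on the log2 scale. Lpin1 and Agpat1 were at 0.10 and -0.10 (adjusted p = 0.14 for both). Over these 7 lists, 34 of 52 tested genes were called, 18 that rose and 16 that fell, with a median of -0.04. This is 65.4%, near the 66.7% of all tested genes, so the count is not a result about these lists.

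**Figure D4:**
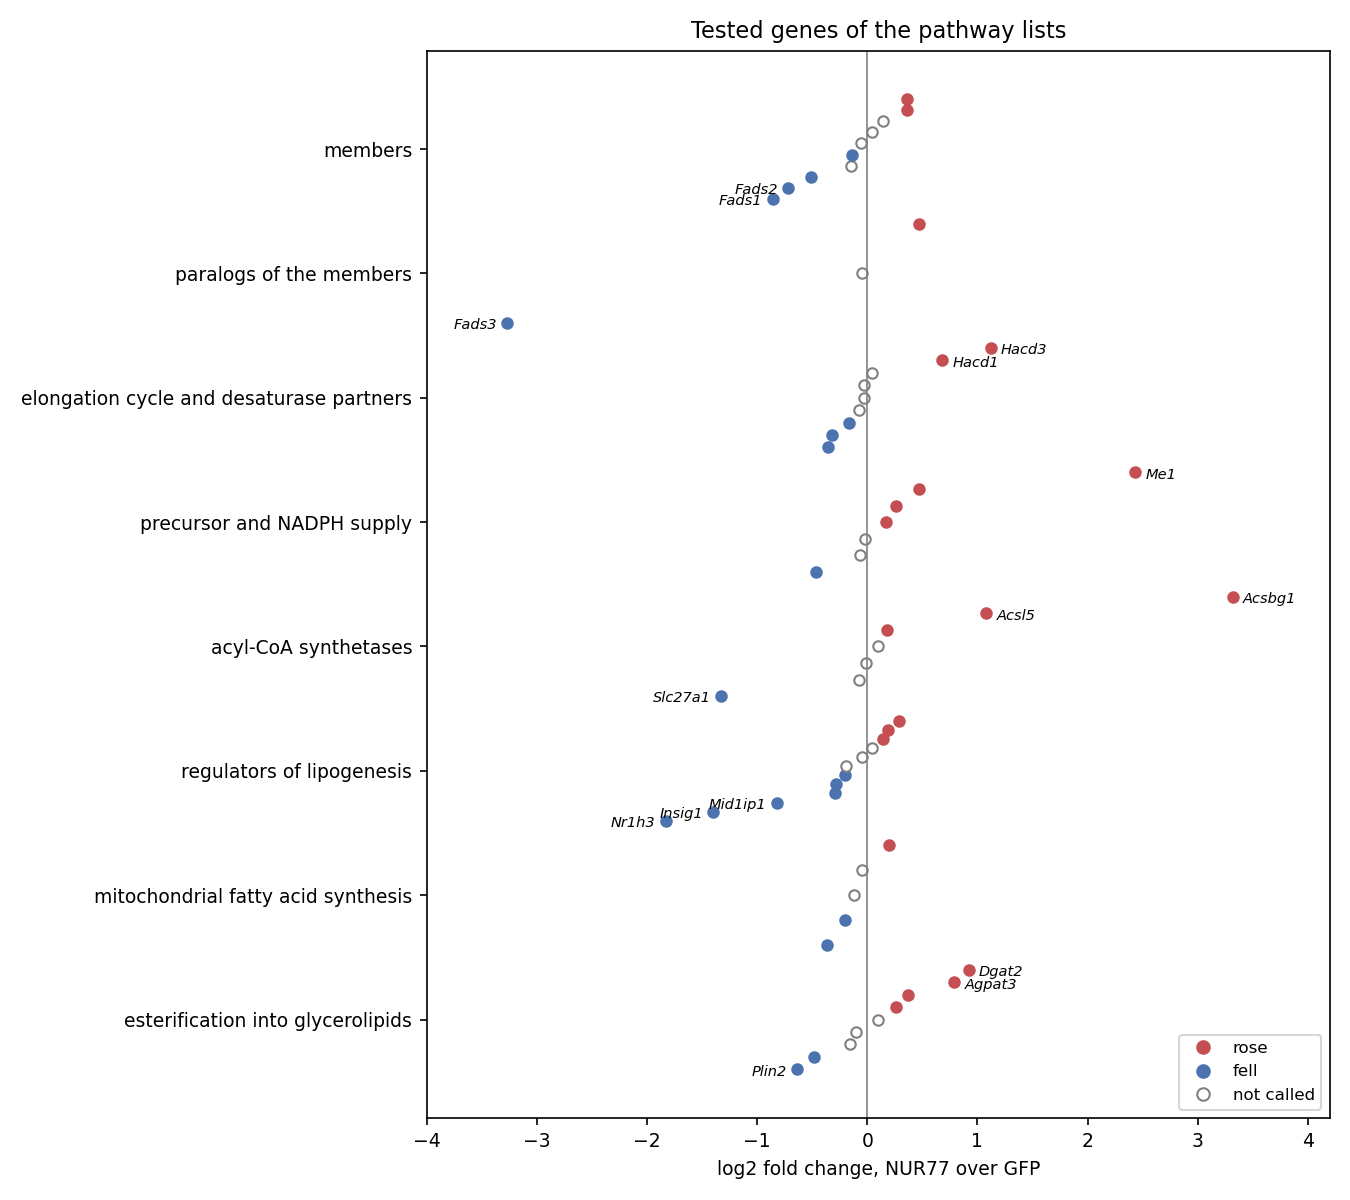
Log2 fold change of NUR77 over GFP (horizontal axis) for the tested genes of the 10 members and of the 7 other pathway lists (rows); each point is a gene, coloured by call, and genes at 0.6 or more in either direction are named. The members lie between -0.86 and 0.36, while Acsbg1 at 3.32, Me1 at 2.43 and Fads3 at -3.27 lie far outside that range.

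Markers of other cell types were mostly low, with Tnni2 the main exception. Of 5 hepatocyte markers, 1 was matched, and its level was too low for it to be tested. Of 7 adipocyte markers, Cidec and Lep had no read in any library. The list summed to 15.0 to 15.7 normalized reads in GFP and 78.8 to 112 in NUR77, of which Fabp4, also expressed by macrophages, made up 14.7 and 96.3 on average. The 13 skeletal muscle markers summed to 327 in NUR77 replicate 1 against 114 and 123 in the other NUR77 libraries. In GFP they summed to 387 to 440, where Tnni2 alone averaged 364, and Tnni2 fell by 2.28 on the log2 scale. Because Tnni2 fills the GFP sums, they hide that Acta1 was at 51.8 in NUR77 replicate 1 against 7.53 to 12.5 elsewhere. The 5 fibroblast markers summed to 92.9 in NUR77 replicate 1 against 17.6 to 32.0 elsewhere. Without NUR77 replicate 1, again 2 members rose and 4 fell, so the members' calls did not rest on it.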

How the data were processed

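Poly(A) RNA of 6 libraries was sequenced after a stranded library preparation, per the labels' protocols. Values were deposited by the authors on a log2 scale, separately for each library. TopHat2 2.1, HTSeq, DESeq2 and the mm10 build are named in the submitters' processing notes, but the sources used here give neither their roles, nor the strand setting, nor the annotation release. With the log undone, each library summed to 10000000, and whole reads were recovered for 100% of values within 0.1 read. Equal totals let a few abundant genes shift all others slightly. Names and coordinates are from GENCODE M21 (GRCm38), which named 22872 of 23154 identifiers.

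Here, limma 3.58.1 in R 4.3.3 was fitted to log2(normalized reads + 1) on all 6 libraries without covariates, with a variance trend and robust moderation, for genes with a mean of 10 or more. The fit was also run on simulated data in which far fewer genes changed than here, so no conclusion is drawn from that run. Within-library ratios were compared by exact permutation. Pathway genes were named by rule: of each list, up to 4 called genes with the largest change and the 2 most abundant genes not called. The members and lists were chosen with earlier results of these data known. Of 63 other pathway genes, 61 were matched. The alternatives were 2 pseudocounts, 2 filters, 3 scalings, 2 variance models, a replicate block and each library left out.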

Additional observations from a re-analysis of the deposited data

How the results depend on the processing

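The calls of Acaca, Scd1, Elovl1, Fads1 and Fads2 and their directions held under all 16 alternatives, and between 5 and 8 members were called. The number of genes called lay between 6749 and 8429, within 1.5 times that of the reported fit. TMM scaling moved the median of all genes from 0.059 to -0.016 and turned the split of calls from 4305 that rose and 3170 that fell to 3606 and 3838. Acly turned to -0.04 under TMM, -0.02 under upper-quartile and -0.02 under median-of-ratios scaling, and neither it nor Srebf1 was called in any of these. Srebf1 lay between -0.12 without NUR77 replicate 2 and 0.05 without NUR77 replicate 1. Leaving out single libraries gave 6749 to 7257 genes and 5 to 6 members called. With a replicate block, 7585 genes and 7 members were called, Fasn being added. Same-numbered libraries correlated at 0.002, 0.114 and 0.045 in their deviations from the line means, and not every library correlated best with its own number. So few and such small correlations cannot decide whether same-numbered libraries were paired, and the labels state no pairing. Libraries of a line were not duplicates, with a chi-square per degree of freedom of 2.39 or more. Elovl5, Fasn, Elovl6 and Scd2 changed their call under at least 1 alternative, and the cause was not tested. The lowest member, Elovl6, rests on 1922 reads in GFP and 1763 in NUR77, for which counting error alone gives a coefficient of variation of 3.95% and 4.13% per library, beside measured values of 3.6% and 5.22%.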

Other observations

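Within the NUR77 line, replicate 2 held the highest values of Fasn (3626 normalized reads against 3227 and 2936), Fads2 (1056 against 923 and 833) and Elovl1 (837 against 723 and 719). The SREBP genes were highest in the same library, Srebf1 at 1348 against 1060 and 1260 and Srebf2 at 3134 against 2687 and 2977. Scap was at 722 there against 546 and 613. Between the lines, Srebf2 rose by 0.19 in the limma fit (adjusted p = 0.007). Acaca, Scd1, Scd2 and Fads1 were also highest in NUR77 replicate 2, by narrower margins. Acly (3902), Elovl5 (1825), Elovl6 (488) and Insig1 (446) were instead highest in NUR77 replicate 1. These genes were picked out after their values were seen, and the pattern was not tested.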
